A study of Homo sapiens with 20 samples.

Results

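Laminins are the heterotrimeric glycoproteins of the basement membrane, and the genes of 8 laminin chains were followed here across all conditions of an RNA-seq study of LNCaP, a human prostate adenocarcinoma line. The 8 genes were chosen by symbol and each matched 1 of 57773 rows in both count tables. They are the alpha chain genes LAMA1, LAMA3, LAMA4 and LAMA5, the beta chain genes LAMB1, LAMB2 and LAMB3, and the gamma chain gene LAMC1. The study asked how EHMT1 (GLP), a histone H3 lysine 9 methyltransferase, and a pair of neighbouring lysines in this protein affect transcription in prostate cancer cells. For 2 days LNCaP cells were given siRNA at 20 nmol/L, either a pool that targets EHMT1 (siEHMT1, n = 2) or a nontarget pool (siNTC, n = 2). The other 16 columns came from 4 LNCaP-tet-EHMT1 lines, in which a lentiviral, puromycin-selected and doxycycline-inducible construct carried V5-tagged EHMT1 that was wild type (WT) or had arginine in place of the first (K450R), the second (K451R) or both of these lysines (K450RK451R). Each line was left untreated (Veh) or given doxycycline (Dox, 0.25 µg/mL for 2 days per the labels), with 2 columns per condition. The labels name these 2 columns as replicates. All stable lines keep their own EHMT1, and none lacked the transgene, so an effect of doxycycline itself and an effect of the induced protein cannot be told apart.

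A laminin trimer takes 1 alpha, 1 beta and 1 gamma chain, joined along a coiled coil. Cells read the trimer mainly through integrins and dystroglycan, which bind the globular end of the alpha chain. Trimers with the LAMA5 chain are the common laminins of adult epithelial basement membranes, whereas the LAMA3 and LAMB3 chains belong to laminin-332, which anchors basal cells through hemidesmosomes. In the normal prostate laminin-332 is a product of the basal layer, and its loss in prostate carcinoma is well known. LAMA1 is the alpha chain of the embryonic laminin, and LAMA4 that of vessels and mesenchyme.

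The promoters of the genes on which the results turn are shown first. RefSeq (GRCh38.p14) gave 9 starts for 7 of the 8 genes, and LAMA1 was not matched. The bases printed are the 250 before a start, read 5′ to 3′ on the strand of the gene. Shown are LAMB3, which rose after EHMT1 silencing, at starts 1 and 3 of its 3 starts (chr1:209652426-209652675 and chr1:209651375-209651624, minus strand), LAMA3, its partner in laminin-332 (chr18:23872770-23873019, plus strand), and LAMA5, which fell with Dox (chr20:62367313-62367562, minus strand). Capitals mark TGACTCA, the AP-1 motif, and GGGCGG, the GC box, on either strand.
LAMB3, start 1: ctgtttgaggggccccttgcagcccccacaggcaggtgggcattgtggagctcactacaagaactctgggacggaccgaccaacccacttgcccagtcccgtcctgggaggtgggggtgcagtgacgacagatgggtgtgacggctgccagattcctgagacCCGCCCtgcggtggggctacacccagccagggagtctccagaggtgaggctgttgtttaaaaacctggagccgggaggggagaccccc
LAMB3, start 3: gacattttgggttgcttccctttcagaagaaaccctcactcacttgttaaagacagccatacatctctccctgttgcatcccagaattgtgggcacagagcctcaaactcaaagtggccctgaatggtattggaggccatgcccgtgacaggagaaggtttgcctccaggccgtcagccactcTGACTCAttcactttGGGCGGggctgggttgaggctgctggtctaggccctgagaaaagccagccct
LAMA3: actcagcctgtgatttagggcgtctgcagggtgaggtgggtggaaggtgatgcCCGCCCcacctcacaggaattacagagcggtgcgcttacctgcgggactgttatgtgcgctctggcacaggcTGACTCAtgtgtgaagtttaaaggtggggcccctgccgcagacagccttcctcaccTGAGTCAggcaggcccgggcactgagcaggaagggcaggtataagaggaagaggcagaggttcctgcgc
LAMA5: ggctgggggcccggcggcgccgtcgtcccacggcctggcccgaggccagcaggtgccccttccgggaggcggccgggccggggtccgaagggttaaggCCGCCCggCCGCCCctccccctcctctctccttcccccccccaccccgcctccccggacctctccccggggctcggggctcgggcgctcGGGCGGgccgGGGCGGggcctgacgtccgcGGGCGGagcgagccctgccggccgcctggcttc
The AP-1 motif occurred 2 times in the LAMA3 window and 1 time at LAMB3 start 3, and in none of the other 7 windows. Of all 35116 promoter windows of this length, 4.2% held it. GC boxes numbered 5 in the LAMA5 window and 1 in each of the other 3 windows shown, and 42.6% of all windows held at least 1. The E-box CACGTG was absent from all 9 laminin windows and present in 6.34% of all windows. The LAMA5 window was also the richest in G and C of the 9, at 82.8%, and the window of LAMB3 start 3 had 54.0%. These matches describe letters only. The search covered only these 9 starts, 1 of them for LAMA3, whereas the counts cover all transcripts of a gene.

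Depth and identity were checked before the laminin genes were read. The total count was 5593400 to 12438006 per siRNA library. The 2 columns of a stable-line condition differed by no more than counting noise (chi-square per degree of freedom 0.995 to 1.02) and were therefore summed and counted as 1 sample, giving 8436791 to 12407739 counts per condition. A pair of pseudogenes that resemble ribosomal RNA took 10.0% of the counts of siNTC replicate 2 and at most 1.00% elsewhere. EHMT1 itself was at 87.8 and 83.6 CPM (counts scaled to library size, after TMM normalization within a table) with siNTC and at 29.2 and 30.7 CPM with siEHMT1, and it went from 71.7 to 88.9 CPM in the Veh libraries to 663 to 842 CPM in the Dox libraries. The luminal markers KLK3, which encodes PSA, and HOXB13 were at 2917 to 8322 CPM and 375 to 473 CPM. Of the basal markers TP63 and KRT5 were at 0, and KRT14 with KRT15 reached at most 1.52 CPM in sum. Leukocyte markers reached at most 0.609 CPM in sum. Among 6 fibroblast markers COL1A1 held nearly all of the 18.3 to 41.9 CPM, COL1A2 being at 0. Of the endothelial markers VWF, CDH5 and KDR, VWF held nearly all of the 3.35 to 16.0 CPM, CDH5 being at 0. PECAM1, also listed as an endothelial marker, was not matched by symbol and is not in this sum.

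LNCaP cells expressed chiefly LAMC1 and LAMB2, with LAMA5 and LAMA3 as the leading alpha chains. To set genes side by side, CPM were divided by the length of all exons of a gene in kilobases (GENCODE 44 on GRCh37). LAMC1 (chr1:182992555-183114727) stood at 86.9 ± 6.41 CPM per kb in the Veh libraries (SD, n = 4 lines) and 84.1 ± 4.79 CPM per kb with siNTC (SD, n = 2), the highest of the 8 in every library. LAMB2 (chr3:49158547-49170551), the beta chain that LAMC1 joins in laminin-521, came next at 53.2 ± 2.19 CPM per kb with Veh. LAMA5 (chr20:60883011-60942368) and LAMA3 (chr18:21269417-21536186) followed at 7.29 ± 0.920 and 6.14 ± 0.796 CPM per kb with Veh, and LAMA3 was at 0.809 to 0.895 times LAMA5, below it in each of the 4 Veh libraries. LAMB3 (chr1:209788215-209825770) at 0.604 ± 0.221 and LAMB1 (chr7:107564244-107643658) at 0.437 ± 0.0823 CPM per kb also lay within their spread, and with the longest transcript as the length LAMB1 rose to 1.21 CPM per kb and passed LAMB3. LAMA1 (chr18:6941741-7117796) was at 0.145 ± 0.0855 CPM per kb. LAMA4 (chr6:112429134-112576141) had 0 counts in all 4 siRNA libraries, which allows up to 0.240 to 0.593 CPM at the floor of 3 counts, and 0 to 2 counts in the stable-line conditions. It was under the filter on low counts, so 7 of the 8 genes were tested in each comparison.

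**Figure D1:**
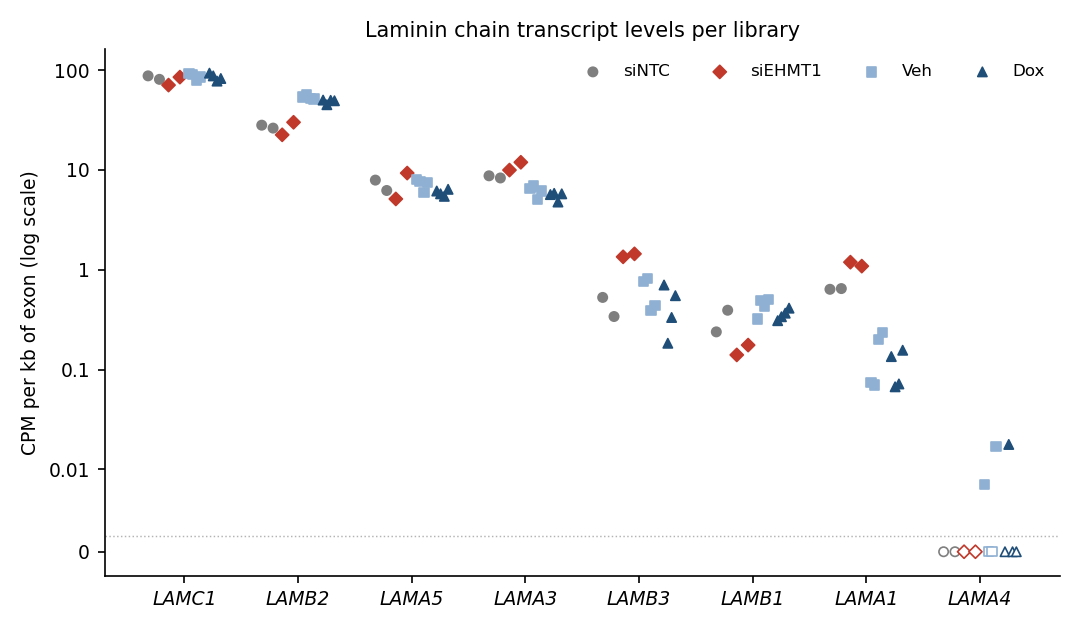
Transcript level of the 8 laminin chain genes in CPM per kb of exon on a log scale, 1 point per library (2 siNTC, 2 siEHMT1, 4 Veh and 4 Dox, the last 2 kinds being 1 point per stable line); open symbols on the line marked 0 are libraries without a count. LAMC1 was highest in each of the 12 libraries, LAMA4 was at or near 0, and LAMB3 and LAMA1 had higher points with siEHMT1 than with siNTC.

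Summed over the 8 genes, the gamma chain gene made up 55.2% to 65.7% of the laminin level per kb in the 12 libraries, the beta genes 21.6% to 36.9% and the alpha genes 7.43% to 16.1%. Among other chain genes, LAMA2 and LAMB4 were under the filter in both tables, and LAMC3 passed it in the stable-line table. The tables were normalized separately, and levels across them carry no test. Set side by side, the parental cells of the siRNA experiment had 154 to 206 CPM of LAMB2 against 309 to 385 CPM in the stable lines, and 10.1 to 18.9 CPM of LAMA1 against 1.07 to 3.75 CPM. The ratio of LAMA3 to LAMA5 per kb was 1.10 to 1.95 in the siRNA libraries and 0.809 to 1.01 in the stable lines.

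Silencing of EHMT1 was followed by a higher LAMB3 transcript level, the only laminin gene past an adjusted p of 0.05. LAMB3 encodes the beta chain particular to laminin-332. The siNTC libraries held 26 and 8 counts of it (2.46 and 1.58 CPM) and the siEHMT1 libraries 60 and 84 counts (6.26 and 6.71 CPM). Both siEHMT1 libraries lay above both controls, the lowest of which was the shallow siNTC replicate 2. The log2 difference was 1.61 (3.05-fold, standard error 0.316), and its Benjamini-Hochberg adjusted p in the edgeR quasi-likelihood fit was 0.0443. In this test 0.131% of the 14532 genes were called, and 0.0619% were called higher. The call is near its threshold and was kept in 8 of 13 alternatives. It was lost with limma-voom (adjusted p = 0.141), the legacy quasi-likelihood method (0.0557), upper-quartile scaling (0.0539) and no filter on low counts (0.0586). Without siNTC replicate 2 the log2 difference fell to 1.40. The range over all alternatives was 1.40 to 2.03, with adjusted p between 0.00235 and 0.141. The siRNA samples are not stated to come from separate cultures, so these p-values measure only the spread between libraries.

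LAMA1 showed a pattern of the same direction that missed the adjusted threshold. Its values were 10.1 and 10.3 CPM with siNTC and 18.9 and 17.2 CPM with siEHMT1 (107, 52, 181 and 216 counts), so the groups did not overlap. The log2 difference was 0.83 (standard error 0.177, edgeR adjusted p = 0.0740). LAMA3, the alpha chain of laminin-332, had 126 and 120 CPM with siNTC and 144 and 173 CPM with siEHMT1. Its log2 difference was 0.36 (standard error 0.0986, edgeR adjusted p = 0.188), with both silenced libraries above both controls. LAMB1, a beta chain of broad tissue distribution, had the opposite sign, with 4.44 and 7.31 CPM against 2.61 and 3.27 CPM. Its log2 difference was −0.93 (standard error 0.320, edgeR adjusted p = 0.319) on 25 to 47 counts per library. Over the 7 genes tested, 4 had an unadjusted p under 0.05 (LAMB3, LAMA1, LAMA3 and LAMB1), where 9.55% of all genes did. The values of the 2 groups did not overlap for these 4 genes, as for 39.7% of all genes tested. The median log2 difference of the 7 genes was 0.03, with 4 higher and 3 lower, against −0.0021 over all genes.

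LAMC1, LAMB2 and LAMA5 gave no call in this comparison, and their groups overlapped. LAMC1 had 739 and 682 CPM with siNTC and 597 and 718 CPM with siEHMT1, a log2 difference of −0.11 (standard error 0.0997, edgeR adjusted p = 0.764). LAMB2 had 193 and 180 CPM against 154 and 206 CPM, and its log2 difference was −0.05 (standard error 0.11, edgeR adjusted p = 0.930). LAMA5 had 113 and 88.9 CPM against 73.2 and 133 CPM, with a log2 difference of 0.03 (standard error 0.173, edgeR adjusted p = 0.982). In all 3 the control values lay between the values of siEHMT1 replicate 1, which was lowest, and siEHMT1 replicate 2, except that siNTC replicate 1 was highest for LAMC1. The spread of LAMA5 between the silenced libraries was thus wider than any difference between the groups, and without siEHMT1 replicate 2 the log2 difference became −0.46 (edgeR adjusted p = 0.0432).

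**Figure D2:**
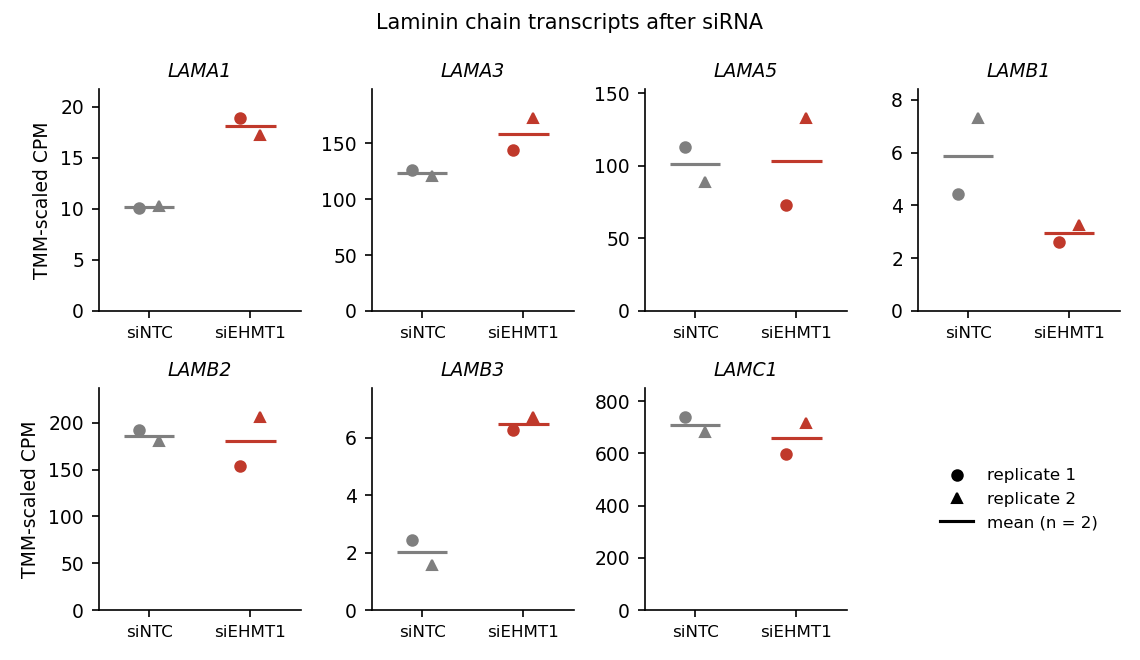
TMM-scaled CPM of the 7 tested laminin genes in the siRNA libraries, with a circle for replicate 1, a triangle for replicate 2 and a line for the mean of each group; each panel has its own axis from 0. LAMB3, LAMA1 and LAMA3 were higher in both siEHMT1 libraries than in both siNTC libraries, LAMB1 was lower in both, and the groups overlapped for LAMA5, LAMB2 and LAMC1.

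Among genes that act with the laminins, none passed an adjusted p of 0.05 after EHMT1 silencing. Of 14 laminin receptor genes tested, 7 had a positive log2 difference and 2 an unadjusted p under 0.05, which 9.55% of all genes had. These were ITGB1, the beta subunit of most laminin-binding integrins, at −0.41 (edgeR adjusted p = 0.0919), and SDC4, a syndecan, at −0.45 (edgeR adjusted p = 0.227). Of 8 other basement membrane genes tested 2 had an unadjusted p under 0.05, TINAGL1 at 1.55 (edgeR adjusted p = 0.288) and PXDN at −0.20 (edgeR adjusted p = 0.514). The proteases that cleave laminins gave 1 such gene of 5, MMP7, at 0.96 (edgeR adjusted p = 0.501), and the 2 hemidesmosome genes tested gave none. VWF went from 9.26 and 7.71 CPM to 16.0 and 15.6 CPM (edgeR adjusted p = 0.0741) while CDH5 stayed at 0, and its part in the laminin values was not tested.

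LAMA5 was lower with Dox in each of the 4 stable lines, the only laminin gene past the adjusted threshold in this comparison. LAMA5 encodes the alpha chain of laminin-511 and laminin-521. With Veh and then Dox it was at 114 and 87.8 CPM for WT, 110 and 82.3 CPM for K450R, 85.0 and 77.7 CPM for K451R, and 108 and 91.3 CPM for K450RK451R. The decrease was widest in WT and K450R and narrowest in K451R, where the Veh value was already the lowest of the 4. With the lines as replicates, the log2 difference of Dox minus Veh was −0.29 (standard error 0.0657, a ratio of 0.817), and the edgeR adjusted p was 0.0133. The 4 lines induce different forms of EHMT1, so any difference between forms is part of this spread. The p-values for Dox, here and below, do not measure the spread between repeat cultures of a line. In this test 2.11% of the 14105 genes were called, and 1.51% were called lower. The call was lost without the K450R line (log2 difference −0.25, adjusted p = 0.152). It was also lost with only the second column of each condition (−0.24, adjusted p = 0.0974). With GC content corrected for, an alternative added after the data were seen, the difference was −0.30 (adjusted p = 0.00808). The 3′ end of LAMA5 shares 244 exon bases with ADRM1 on the opposite strand, LAMB1 shares 300 with DLD, and LAMA1 shares 1641 with an antisense noncoding RNA. Whether reads were counted by strand is not given in the sources used here.

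The other laminin genes had log2 differences below 0 without passing the threshold. LAMA3 was at 93.8 and 82.0 CPM with Veh and Dox for WT, 99.9 and 84.4 for K450R, 72.9 and 69.1 for K451R, and 89.0 and 83.4 for K450RK451R, a log2 difference of −0.15 (standard error 0.0649, edgeR adjusted p = 0.260). LAMB2 was at 368 and 343 CPM for WT, 385 and 309 for K450R, 355 and 341 for K451R, and 352 and 338 for K450RK451R, a log2 difference of −0.13 (standard error 0.0554, edgeR adjusted p = 0.249). Both were lower with Dox in every line, and the LAMB2 value of K450R with Dox stood apart below the other 3. In K451R and K450RK451R the intervals for counting error of both genes included no change. LAMC1, the gamma chain shared by most trimers, was nearly level at 784 and 786 CPM for WT, 768 and 738 for K450R, 663 and 655 for K451R, and 720 and 695 for K450RK451R. Its log2 difference was −0.03 (standard error 0.050, edgeR adjusted p = 0.842).

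**Figure D3:**
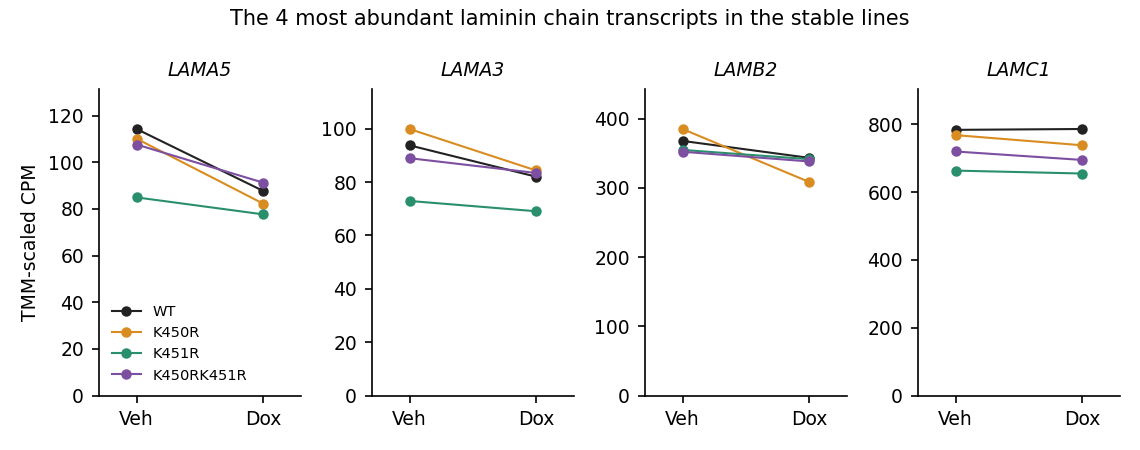
TMM-scaled CPM of the 4 most abundant laminin genes in the Veh and Dox library of each stable line, joined by a line in the colour of the cell line, on axes from 0. LAMA5, LAMA3 and LAMB2 were lower with Dox in all 4 lines, and K451R lay lowest for LAMA5, LAMA3 and LAMC1 in both conditions.

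The rarer chains were read on 8 to 99 counts per library in the stable lines. LAMB1 was at 5.99 and 5.75 CPM with Veh and Dox for WT, 9.13 and 6.29 for K450R, 8.02 and 6.84 for K451R, and 9.33 and 7.67 for K450RK451R, lower with Dox in all 4 (log2 difference −0.28, standard error 0.177, edgeR adjusted p = 0.499). LAMB3 had 42 and 29 counts for WT, 31 and 8 for K450R, 15 and 19 for K451R, and 20 and 33 for K450RK451R. Its log2 difference was −0.39 (standard error 0.328, edgeR adjusted p = 0.643), and without the K450R line it was 0.01. LAMA1 had 14 and 19 counts for WT, 9 and 10 for K450R, 26 and 14 for K451R, and 37 and 32 for K450RK451R, a log2 difference of −0.44 (standard error 0.349, edgeR adjusted p = 0.613) that was −0.10 without the K451R line and −0.78 without WT. All 7 tested genes had a log2 difference below 0, as did 48.8% of all genes, and their median was −0.28 against 0.0050 over all genes. Of the 7, 3 had an unadjusted p under 0.05, all lower (LAMA5, LAMB2 and LAMA3). Over all genes 14.4% had such a p, and 7.55% had it with a lower level. LAMA5, LAMA3, LAMB2 and LAMB1 were lower with Dox in all 4 lines, a pattern held by 10.1% of all genes tested. That pattern counts direction alone. For LAMB1 the interval for counting error included no change in WT, K451R and K450RK451R, and for LAMA5 it did in K451R. The laminin genes were measured in the same libraries and are not independent of each other.

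Within a line there is 1 library per condition and no test, so ratios of scaled counts are given with exact 95% binomial intervals that cover counting error only. In WT 1 of 7 genes was past 1.5-fold, LAMA1 at 1.81 (0.861 to 3.91), where 11.3% of all genes were. In K450R it was LAMB3, at 0.223 (0.0887 to 0.496), where 13% of all genes were past the fold. In K451R it was LAMA1, at 0.360 (0.174 to 0.716), where 11.6% were. In K450RK451R it was again LAMA1, at 0.660 (0.398 to 1.09), where 13.9% were. The genes past the fold were thus the 2 with the fewest counts, and the intervals of LAMA1 in WT and K450RK451R included 1. The median log2 ratio of the 7 genes was −0.10 for WT, −0.32 for K450R, −0.13 for K451R and −0.09 for K450RK451R.

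**Figure D4:**
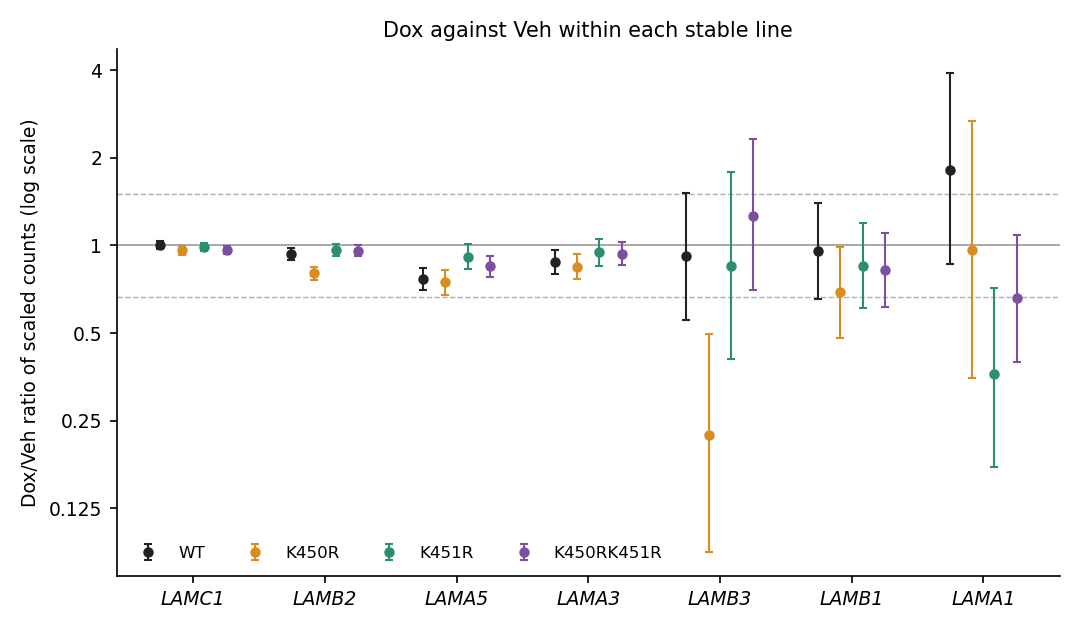
Ratio of the Dox to the Veh library (TMM-scaled counts, log scale) for the 7 tested laminin genes in each stable line, with exact 95% intervals for counting error; dashed lines mark 1.5-fold either way. LAMA5 lay between 0.748 and 0.915 in the 4 lines, LAMB3 in K450R was at 0.223, and the LAMA1 ratios ran from 0.360 to 1.81.

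The Dox effect of the 3 mutant lines was set against that of WT to ask whether the mutated lysines mattered for the laminin genes. None of the 7 passed an adjusted or an unadjusted p of 0.05, where 0.163% and 7.1% of all genes did. LAMA1 had the widest gap, a log2 difference of effects of −1.63 (standard error 0.813, edgeR adjusted p = 0.705), on 9 to 37 counts per library. For LAMA5 the gap was 0.12 (standard error 0.146, edgeR adjusted p = 0.915), and for LAMC1 it was −0.05 (standard error 0.10, edgeR adjusted p = 0.965). WT is 1 line here, and these results do not show that the lines responded alike.

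Between the lines, apart from Dox, no laminin gene passed the adjusted threshold, and K451R had the lowest values of 3 abundant genes. LAMA3 was at 72.9 and 69.1 CPM in K451R (Veh and Dox), below 82.0 to 99.9 CPM in the other 6 libraries. The widest gap between lines was 0.37 on the log2 scale (edgeR adjusted p = 0.0700). It was 0.37 without the K450RK451R line (adjusted p = 0.0405) and 0.09 without the K451R line (adjusted p = 0.898). LAMC1 was at 663 and 655 CPM in K451R and at 695 to 786 CPM elsewhere, a gap of 0.25 (edgeR adjusted p = 0.132, and 0.0354 with no filter on low counts), which was 0.15 without the K451R line (adjusted p = 0.622). LAMA5 gave 0.30 (edgeR adjusted p = 0.169), and 0.07 without the K451R line (adjusted p = 0.927). LAMA1 was at 2.48 to 3.75 CPM in K450RK451R and 1.07 to 1.11 CPM in K450R, a gap of 1.48 (edgeR adjusted p = 0.304) that was 0.86 without the K450RK451R line (adjusted p = 0.712). These 4 genes had an unadjusted p under 0.05, where 15.2% of all genes did, and none passed the adjusted threshold, where 3.05% did. LAMB2 was the most even, with a gap of 0.04 (edgeR adjusted p = 0.980). The median gap of the 7 genes was 0.37 against 0.30 over all genes. A line is repeated only by its Veh and Dox libraries. The p-values between lines, here and below, therefore do not measure the spread between separately made lines of the same construct.

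Among the partner genes in the stable lines, 2 fell with Dox, where 1.51% of all genes were called lower and 2.11% in either direction. RPSA, the ribosomal protein that was first described as a laminin receptor, was the only 1 of 13 receptor genes called (log2 difference −0.23, standard error 0.0599, edgeR adjusted p = 0.0411), and it was lower with Dox in all 4 lines, at 158 to 177 CPM against 177 to 230 CPM. RPSA has many near-identical pseudogenes with which the counting could split reads. COL18A1, a basement membrane collagen that is the source of endostatin, was the only 1 of 7 other basement membrane genes called (−0.33, standard error 0.0875, edgeR adjusted p = 0.0439), at 27.2 to 40.8 CPM with Dox and 40.6 to 46.8 CPM with Veh. Both calls were lost without the K450R line (adjusted p = 0.0599 and 0.305 for RPSA and COL18A1) and without the K451R line (0.360 and 0.144), and that of RPSA also without the WT line (0.0823). Of 5 proteases, MMP7, which cleaves laminin-332, differed between lines by 1.18 on the log2 scale (edgeR adjusted p = 0.0197, where 3.05% of all genes were called), with 10.5 and 13.1 CPM in WT and 4.38 to 7.71 CPM in the other lines, and without WT the gap was 0.33 (adjusted p = 0.819). Of 8 luminal markers 4 were called with Dox, all higher, where 2.11% of all genes were called. Among them were HOXB13 and TMPRSS2 (log2 differences 0.19 and 0.22, edgeR adjusted p = 0.0492 and 0.0177). KRT8 and KRT18 went the other way without a call (−0.20 and −0.16, edgeR adjusted p = 0.0602 and 0.150). The part of these markers in the laminin values was not tested. In bulk RNA, fewer cells of a kind and less RNA per cell cannot be told apart.

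Levels of the laminin genes were also compared across the 12 libraries, each table centred on its own mean. These correlations are a description, since the libraries share depth, treatment and scaling. Among the 21 pairs the highest Pearson correlations were those of LAMA5 with LAMB2 (Pearson r = 0.868, Spearman rho = 0.832) and LAMA5 with LAMC1 (r = 0.738, rho = 0.608). LAMA3 and LAMB3, both of laminin-332, were at r = 0.717 (rho = 0.720), and the alpha chain genes LAMA3 and LAMA5, which do not share a trimer, at r = 0.645 (rho = 0.671). By Spearman rho these last pairs stood above LAMA5 with LAMC1. LAMB1 and LAMB3 ran most opposite, at r = −0.524 (rho = −0.497). The gene closest to LAMC1 among 10973 candidates was CDH1, which encodes E-cadherin (r = 0.935, n = 12), and the gene closest to LAMB3 was ALPK3 (r = 0.949), followed by MYL5 and CBLC. LAMA5 and LAMB2 shared ZSWIM8 among their 3 closest genes (r = 0.924 and 0.928). For LAMA3, LAMB1 and LAMA1 the closest were BSDC1 (r = 0.911), KIAA1429 (r = 0.914) and B3GAT3 (r = 0.896).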

How the data were processed

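Counts per Ensembl gene were deposited by the authors as 2 tables of raw counts, without normalization. Their processing notes name FastQC 0.11.9, STAR 2.7.2, featureCounts 1.6.4 and hg19, and their libraries were stranded total RNA. The annotation release and the strand setting are not given in the sources used here. Gene positions came from GENCODE 44 on GRCh37, which held 55538 of 57773 identifiers, and promoter sequences from RefSeq on GRCh38.p14. Columns were matched to samples by name, and the control columns spell siNTC as siNCT.

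Each table was scaled by TMM, filtered with filterByExpr and tested over all genes with edgeR 4.0.16 (quasi-likelihood, R 4.3.3) and Benjamini-Hochberg adjustment at 0.05, the siRNA libraries alone and the 8 summed stable-line conditions with line and treatment as terms. The Dox effect, the 3 line coefficients and the interaction of Dox with mutant came from those 8 libraries. A count of 3 was taken as the floor. Library totals set the precision, and intervals cover counting error only, since the reads carry no molecular identifiers.

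All 8 laminin genes were described. From lists of receptors, basement membrane, hemidesmosome and protease genes and other laminin chains, every gene past an adjusted p of 0.05 was named, at most 8 per test. Some listed genes are not reported here. Genes with an unadjusted p under 0.05 after EHMT1 silencing were named after their values were seen, as were VWF and the promoter motifs. For each laminin gene the 3 most correlated genes with a mean of at least 5 CPM were sought on log2(CPM + 0.5), and those printed were picked from them. The laminin genes and the lists were chosen with earlier results of these data known. Alternatives were DESeq2 1.42.0, limma-voom (limma 3.58.1), other scalings and filters, single columns, a correction for GC content (added after the data were examined), a replicate block and leaving out each library or line. The tests were tried on simulated counts with log2 changes of 2 in either direction. Those changes are wider than the ones of LAMB3 and LAMA5, so the trial does not bear on their calls.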

Additional observations from a re-analysis of the deposited data

Results flagged for a closer look

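In a set of 4 lines, a value was picked out when its gap to the nearest line exceeded Dixon's 95% critical value for the range of the 4, which chance alone does in about 1 set of 20. The number of sets screened is not given here, so the picks cannot be weighed against that rate. LAMB2 in K450R was picked out in 2 ways, both of which rest on the same Dox library. Its log2 ratio of Dox to Veh was −0.32, below the other 3 lines, and its level with Dox was 309 CPM against 338 to 343 CPM. LAMA3 in K451R was picked out for its level with Dox, 69.1 CPM against 82.0 to 84.4 CPM in the other lines.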

How the results depend on the processing

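After EHMT1 silencing, 1 laminin gene was past an adjusted p of 0.05. The number was 0 with limma-voom, without a filter, under the legacy quasi-likelihood method or after upper-quartile scaling, and 0 to 3 with each library left out. DESeq2 gave LAMB3 no adjusted p (log2 difference 1.63), so no number is given for it. Same-numbered siRNA samples deviated from their group means without relation (Pearson −0.00518 across genes). The numbers thus gave no sign of pairing, which n = 2 per group cannot exclude. With the replicate block 3 genes were called (LAMB3, LAMA1 and LAMA3, adjusted p = 0.00235, 0.00891 and 0.0357), and LAMA5 changed sign to −0.0256. LAMA5 was also at −0.0291 with limma-voom, and −0.46 to 0.39 with libraries left out, where LAMB2 ran from −0.27 to 0.14 and LAMC1 from −0.248 to 0.0129. For Dox, the number of genes called was 1, and 0 with second columns only or without the K450R line, a range of 0 to 1 over left-out lines. LAMB3 with Dox ran from −0.66 to 0.00676 over left-out lines. Between lines 0 genes were called, 1 with no filter (LAMC1), and 0 to 1 over left-out lines. In the mutants against WT, LAMB2 ran from −0.0884 to 0.0414 and LAMB3 from −1.03 to 0.22 over left-out lines, both above 0 without the K450R line. Genes past the fold within a line numbered 1 each, but 0 in WT and in K450RK451R at 2-fold, 0 in K450RK451R with upper-quartile normalization, and 0 in WT, 2 in K450R and 2 in K450RK451R with second columns only. The cause of these changes was not tested. LAMA5 with Dox stayed between −0.34 and −0.24, past the threshold in 13 of 15 alternatives, as were LAMB3 after silencing in 8 of 13, RPSA in 9 and COL18A1 in 6 of 15, and MMP7 between lines in 10 of 12. Counts under 50 per library limit LAMB3 and LAMA1 in the stable lines.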
